A study of Mus musculus with 16 samples.

Results

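miR-204 and miR-211 are a pair of mouse microRNAs that share a seed. They are described here in sciatic nerves, the mixed nerves of the hind limb, of mice in which the Dicer gene was deleted from Schwann cells. All array rows named mmu-miR-204 or mmu-miR-211 were taken, giving 2 of the 650 miRNA names on the array and 6 of its 1857 miRNA probes. Each of the 2 miRNAs had 20 spots, on 2 probes for miR-204 and 4 probes for miR-211. No other name on the array carries either number. The pair was chosen by measured values, namely the p4 genotype difference and the age difference in controls, so these values are descriptions and carry no test.

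MicroRNAs are short RNAs that guide Argonaute proteins to messenger RNAs, mainly by pairing of the seed near their 5′ end, and lower the output of their targets. The RNase Dicer cuts the mature miRNA from its hairpin precursor, so a cell without Dicer makes almost no new miRNA while older molecules decay. miR-204 lies in the Trpm3 gene and is known from the retinal pigment epithelium, lens and choroid plexus, and miR-211 lies in the Trpm1 gene and is known from pigment cells. In the nerve, Schwann cells wrap axons in myelin, and the onset of myelination falls between the late embryo and the first days after birth.

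Sciatic nerves of 4 groups were compared, with 4 arrays each and 16 in all, taken at embryonic day 17 (E17), before myelination, and at 4 days of age (p4), after its onset in controls. Mutants were Dicer fl/fl Dhh-Cre+ (genotype Dicer1 fl/fl, with both alleles floxed) and controls were Dicer wt/fl Dhh-Cre+, which carry 1 floxed and 1 wild-type allele. The floxed allele is that of the Dicer1tm1Bdh/J strain, and the mice were offspring of crosses of these with Dhh-Cre mice, so that all 4 groups carried the transgene. At each age the methods describe 4 pairs of littermates. Its Cre recombinase is driven by the desert hedgehog promoter, which in the nerve is active in the Schwann cell lineage, so that controls also recombine their floxed allele there. The nerve also holds vessels, blood cells, axons and fibroblasts, and recombination in each cell type was not measured here. Endoneurial fibroblasts can share the Dhh lineage. Whole nerves were profiled, so fewer Schwann cells and less miRNA per Schwann cell cannot be told apart. Dicer transcript is not measured by this array, and the targeted gene could not be checked here.

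The mature sequences are shown because the pair is nearly identical, while the arrays gave the pair very different values. They are RefSeq sequences on GRCm38.p6, written 5′ to 3′ with the seed (bases 2 to 8) in capitals.
miR-204-5p: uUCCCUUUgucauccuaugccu
miR-211-5p: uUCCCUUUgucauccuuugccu
Of the 22 bases 21 are identical, and the difference is A17U, counted from 1 at the 5′ end with the miR-204 base first. It lies outside the seed. miR-204-5p is at chr19:22750610-22750631 and miR-211-5p at chr7:64205831-64205852, both on the plus strand. Of the 611 mouse names on the array 393 had a RefSeq sequence, and among those, these 2 names alone carried the seed UCCCUUU. The array names give no arm, and the 5p arm was taken for both, as the arm that carried the plain name. The arms opposite were less alike, with 14 of 21 bases the same.

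The hairpins show what surrounds the mature arm, which is in capitals here. They fall inside the annotated spans of Trpm3 and Trpm1, which encode channels of the melastatin TRP family.
Mir204: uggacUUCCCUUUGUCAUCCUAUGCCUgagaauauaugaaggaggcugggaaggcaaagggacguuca
Mir211: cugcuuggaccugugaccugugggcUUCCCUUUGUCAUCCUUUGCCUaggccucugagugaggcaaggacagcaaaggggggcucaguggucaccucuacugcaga
Mir204 spans chr19:22750605-22750672 (68 bases) and Mir211 spans chr7:64205806-64205911 (106 bases). The loop between the arms has 17 bases in Mir204 and 15 in Mir211. On these sequences the pair differs mostly outside the 5p arm, whereas the array probes read the mature RNA.

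Signals were read in 2 ways. The normalized log2 signal is the log2 median spot intensity after quantile normalization, which gives every array the same distribution of values. It still contains the background, so it compresses differences of dim probes. The total gene signal of the scanner software sums the background-subtracted probes of a miRNA, in scanner units, with no normalization between arrays. In the limma fit over 681 probes of 281 expressed miRNAs, a probe was called when its log2 difference reached 0.5 in either direction and its Benjamini-Hochberg adjusted p was 0.05 or less. A miRNA counted as expressed when its detection flag was set on a share of 0.5 or more of any group's arrays. miR-204 was detected on all 16 arrays. miR-211 entered the fit through p4 controls alone, where it was detected on 3 of 4 arrays.

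The arrays of the series differed in total signal. At E17 the summed signal of all miRNA names ran from 36495 to 60373 for controls and from 39097 to 50827 for mutants. At p4 it ran from 122860 to 154076 for controls and from 56841 to 83630 for mutants. In p4 mutants it was 51.3% of p4 controls, by means of log2 values, and at E17 88.7% of controls. Quantile normalization removes such a shift, so normalized values are differences relative to the other miRNAs. Slide and age cannot be told apart, since the E17 arrays filled 1 slide and the p4 arrays another. Each slide held both genotypes. No miRNA spot was saturated.

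miR-204 was highest in p4 controls and lowest in p4 mutants, with the E17 groups between. On its brighter probe, A_54_P2396, the normalized log2 signals of E17 controls were 9.86, 9.21, 9.08 and 9.10. Those of E17 mutants were 8.97, 9.27, 9.25 and 8.91. The E17 groups overlapped, with control replicate 1 above all other E17 arrays. In p4 controls the values were 10.21, 10.08, 10.06 and 10.35. In p4 mutants they were 8.15, 8.19, 7.73 and 8.47. Every p4 control array lay above every other array, and every p4 mutant array lay below all others.

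The group means gave the same order. They were 10.17 ± 0.14 in p4 controls, 9.31 ± 0.37 in E17 controls, 9.10 ± 0.19 in E17 mutants and 8.13 ± 0.30 in p4 mutants (SD, n = 4 each). In this order the E17 neighbours did not differ beyond their spread. Every spot of this probe was well above background on each array.

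The dimmer probe A_54_P2397 kept the order. Its normalized log2 signals were 8.08 ± 0.18 in p4 controls, 7.16 ± 0.22 in E17 controls, 6.95 ± 0.089 in E17 mutants and 6.61 ± 0.12 in p4 mutants (SD, n = 4 each). In p4 mutants 31 of its 40 spots were well above background. On this scale the difference between p4 groups was smaller on this probe than on the brighter one, and its p4 mutant level was near the background. With background subtracted, the p4 means on A_54_P2397 were 380 in controls and 37.9 in mutants. On A_54_P2396 they were 2522 and 236.

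**Figure D1:**
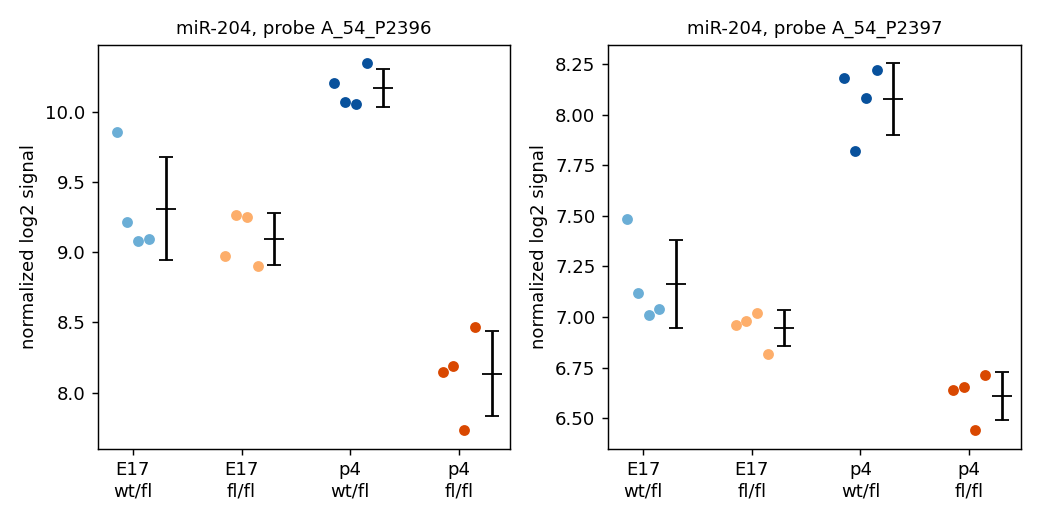
Normalized log2 signal of miR-204 on its 2 probes in the 4 groups. Points are single arrays, and the bars beside them give mean ± SD of 4 arrays. The axes do not start at 0. On the left panel p4 controls lie from 10.06 to 10.35 and p4 mutants from 7.73 to 8.47, with both E17 groups between.

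At E17 miR-204 was not called between mutants and controls. The E17 genotype difference itself did not serve to choose the pair, but its control arrays are also those of the age comparison in controls, which did, so its test is not free of the choice. The log2 difference was -0.21 on A_54_P2396 (SE 0.175, 95% interval -0.59 to 0.16, limma with Benjamini-Hochberg adjustment, adjusted p = 0.479). On A_54_P2397 it was -0.22 (SE 0.106, 95% interval -0.45 to 0.011, limma adjusted p = 0.206). Both probes thus had a lower mean in mutants, by less than the threshold, and the intervals leave room for a decrease of up to 0.59. In that comparison 2.79% of the 681 probes were called, 1.32% lower and 1.47% higher in mutants. The mutant arrays lay below all control arrays for 12.2% of probes, and no miR-204 probe was among these. Control replicate 1 weighed on the value, since without it the difference on A_54_P2396 was -0.033.

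At p4, mutants had less miR-204 than controls on both probes. The log2 difference was -2.04 (SE 0.175) on A_54_P2396, which is 4.11-fold, with a gap of 1.59 between the lowest control and the highest mutant array. On A_54_P2397 it was -1.46 (SE 0.106), which is 2.76-fold, with a gap of 1.11. Among the brightest probes of the 281 expressed miRNAs the miR-204 difference was the 4th lowest. Here 14.5% of probes were called, 7.93% lower and 6.61% higher, and for 20.0% the mutant arrays all lay below the control arrays. The p4 comparison was used to pick the miRNA, and its size at p4 against that at E17 was therefore not tested.

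With age, controls and mutants moved in opposite directions on the normalized scale. In controls miR-204 was higher at p4 than at E17 by 0.86 (SE 0.175) on A_54_P2396, a 1.82-fold difference, and by 0.91 (SE 0.106) on A_54_P2397. The arrays did not overlap on either probe. In that comparison 12.8% of probes were called, 5.43% higher and 7.34% lower, and 20.9% were higher without overlap. In mutants it was lower at p4 by -0.96 (SE 0.175) on A_54_P2396 and by -0.33 (SE 0.106) on A_54_P2397, without overlap of the arrays on either probe. There 7.05% of probes were called, 5.29% lower and 1.76% higher, and 13.7% were lower without overlap. These comparisons share arrays with the genotype comparisons, p4 controls and p4 mutants in particular, so their values are not independent of each other. By rank among the 281 miRNAs miR-204 was the 8th highest with age in controls and the 8th lowest with age in mutants. The size of the fall in mutants depended on the scale. Without normalization it was -0.34 (SE 0.185) on A_54_P2396, and the total gene signals of the mutants overlapped between ages.

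The background-subtracted total gene signal gave a larger p4 difference. This scale differs from the normalized one both in its background and in keeping the array-wide difference in signal, since without normalization alone the log2 difference was already -3.15. In p4 controls the miR-204 signals were 1763, 1781, 2046 and 1748. In p4 mutants they were 159, 205, 112 and 223. The mutant mean was 9.53% of the control mean, and the fold between means of log2 values was 10.8. All 4 mutant arrays were below the lowest control array, as they were for 41.6% of the 281 expressed miRNAs on this unnormalized scale.

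At E17 the total gene signals of miR-204 were 443, 303, 202 and 329 in controls. They were 187, 281, 255 and 191 in mutants. The ranges overlapped, and the means were 319 ± 99.1 and 229 ± 47.1 (SD, n = 4 each). An exact permutation test over the arrays, two-sided, gave p = 0.143, where 70 assignments allow no p below 0.0286.

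**Figure D2:**
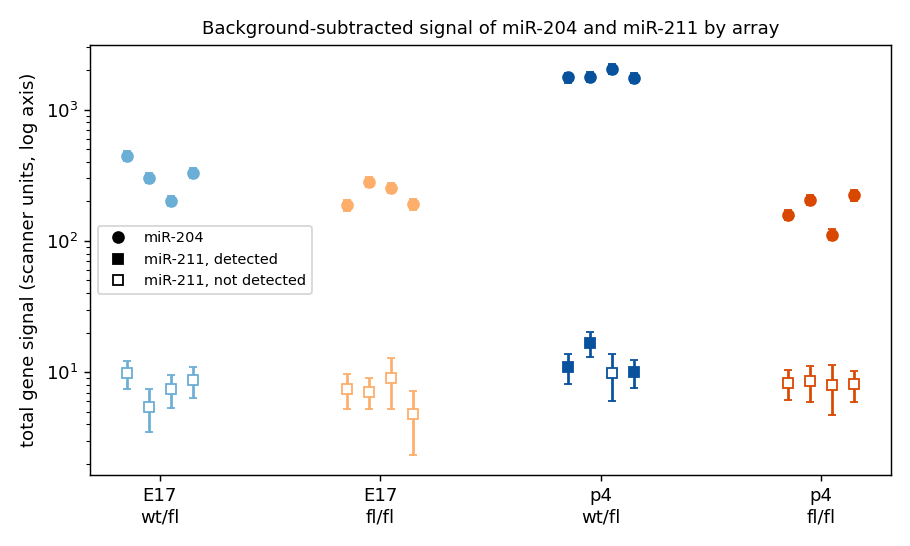
Background-subtracted total gene signal of miR-204 (circles) and miR-211 (squares) on each array, in scanner units on a log axis, with the error given by the scanner software as bars. Open symbols mark arrays on which the miRNA was not detected. The p4 control circles lie from 1748 to 2046 and the p4 mutant circles from 112 to 223. miR-211 is open on all arrays but 3.

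The summed signal of the arrays differed in the same direction, so miR-204 was also expressed as a share of the summed signal of its array. The share was 1.37% ± 0.165 in p4 controls, 0.645% ± 0.154 in E17 controls, 0.524% ± 0.0492 in E17 mutants and 0.249% ± 0.0458 in p4 mutants (SD, n = 4 each). The p4 mutants thus had a share 5.56-fold below that of p4 controls, with no overlap, where 22.4% of the 281 miRNAs were lower without overlap on this scale. Between E17 and p4 the share was 2.16-fold higher in controls, where 18.9% of miRNAs were higher without overlap. In mutants it was 2.12-fold lower, where 24.6% were lower without overlap. Without normalization the mutants' E17 and p4 signals overlapped, at 1.33-fold. For the E17 groups the exact permutation test on shares gave p = 0.143.

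miR-211 had a different profile, close to background in all 4 groups. On its brightest probe, A_54_P1469, the normalized log2 signals were 6.16, 6.11, 6.14 and 6.11 in E17 controls and 6.23, 6.06, 6.04 and 5.94 in E17 mutants. They were 6.14, 6.14, 6.10 and 6.11 in p4 controls and 6.11, 6.08, 6.01 and 6.11 in p4 mutants. The groups overlapped in each of the 4 comparisons. Group means were 6.13 ± 0.024, 6.07 ± 0.12, 6.12 ± 0.017 and 6.08 ± 0.051 in the same order (SD, n = 4 each), and no neighbours among them differed beyond their spread.

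Over the 4 probes of miR-211 and 16 arrays the normalized log2 signals ran from 5.90 to 6.23. On each array all 4 probes lay below the lowest probe that was well above background there, a level between 6.20 and 6.55. Of 80 spots a group, 1 was well above background for E17 mutants, 1 for p4 controls and 0 for the other groups. These probes therefore have bounds and no fold is given for them.

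At E17 the difference on A_54_P1469 was -0.060 (SE 0.0478, 95% interval -0.16 to 0.043, limma adjusted p = 0.463). On the other probes it lay between -0.063 and 0.052, with limma adjusted p from 0.281 to 0.995. At p4 the difference was -0.043, with age in controls -0.0079 and with age in mutants 0.0092. No probe of miR-211 was called in these comparisons. Its values all lay between 5.90 and 6.23, so no group difference could reach the log2 difference of 0.5 that a call needs. The missing calls therefore do not show that miR-211 was unchanged. A_54_P1466 was the exception to overlap, higher in all p4 mutant arrays than in all p4 control arrays by a gap of 0.013, below the lowest probe well above background on both sides, where 19.1% of probes had mutants higher without overlap.

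**Figure D3:**
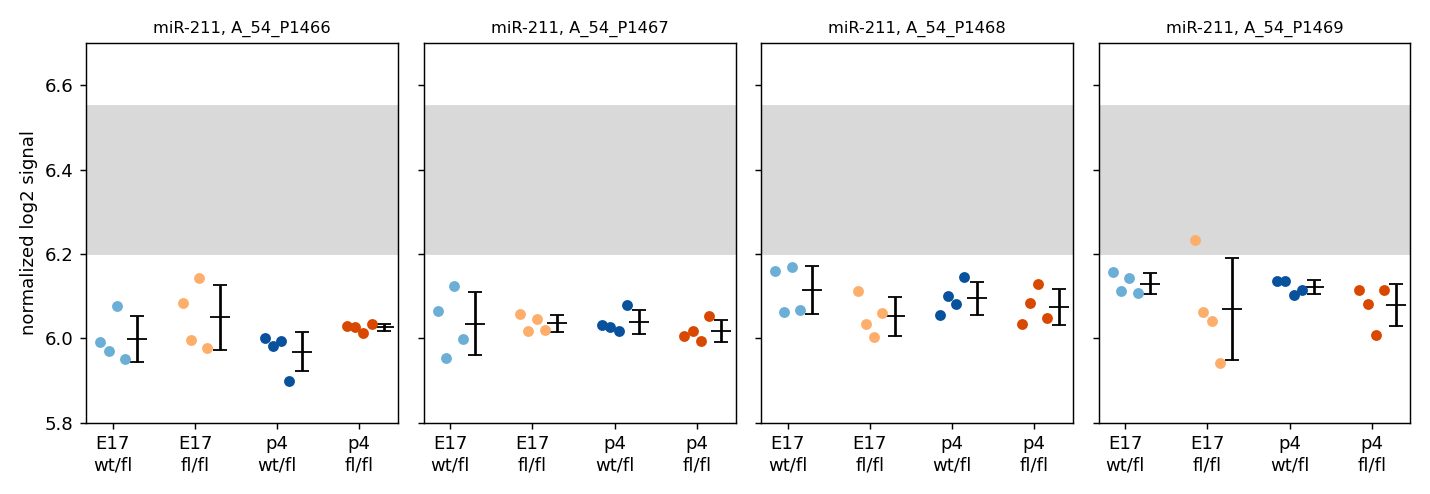
Normalized log2 signal of miR-211 on its 4 probes by group. Points are arrays, bars are mean ± SD of 4 arrays, and the grey band spans the lowest signal well above background on each array, from 6.20 to 6.55. The axis runs over a narrow range and does not start at 0. Every point lies below the level of its own array.

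By total gene signal miR-211 was detected on 3 arrays, all of p4 controls. The signal was 9.78, 5.48, 7.40 and 8.66 in E17 controls and 7.46, 7.11, 9.09 and 4.79 in E17 mutants, with detection on no array of either group. In p4 controls it was 10.97, 16.58, 9.87 and 10.03, with detection on replicates 1, 2 and 4. In p4 mutants it was 8.28, 8.54, 8.0 and 8.12, with no detection. The p4 control arrays thus all lay above the p4 mutant arrays, as for 41.6% of expressed miRNAs on this scale, by a signal near the detection limit. miR-211 counted as expressed only through p4 controls, so this order is a description and carries no weight. As a share of the summed signal the order turned around, at 0.00872% in p4 controls and 0.0121% in p4 mutants, and the arrays overlapped. At E17 the exact permutation p was 0.6 for the signal and 0.886 for the share.

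The miR-211 spots were still brighter than the negative-control spots of the arrays. The median background-subtracted signal of miR-211 spots was above that of negative-control spots on 16 of 16 arrays, with group ranges between 4.15 and 10.2 against 1.09 to 3.56. At E17, 27 of 80 control spots and 10 of 80 mutant spots exceeded the 95th percentile of the negative controls of their array. At p4, 36 of 80 control spots and 25 of 80 mutant spots did. p4 controls had the highest share, 45%, and the highest miR-204 signal, but the other groups did not keep the miR-204 order. E17 controls had 33.75% at a mean miR-204 total gene signal of 319. p4 mutants had 31.25% at 175, and E17 mutants 12.5% at 229. How much of the miR-211 signal comes from miR-204, which differs by 1 base, was not tested. In p4 controls, where the miR-204 total gene signal was at least 1748, that of miR-211 was at most 16.58.

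Ordered by likeness of profile, the pair was far apart. Likeness was the root mean square difference over the 16 arrays between centred log2 signals of the brightest probes, and 280 other miRNAs were ranked. miR-211 came 92nd for miR-204 at 0.742. Over the 16 arrays the SD of miR-204 was 0.786 and that of miR-211 was 0.066. The 5 nearest to miR-204 were miR-34a at 0.344, miR-27b at 0.349, miR-338-3p at 0.395, miR-30a at 0.396 and miR-20b at 0.422. miR-34a is known as a target of p53, miR-338 as a promoter of oligodendrocyte differentiation, and miR-20b as a relative of miR-17.

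The sequences of these 5 are shown to let their seeds be compared with that of miR-204, and each seed is different from UCCCUUU.
miR-34a-5p: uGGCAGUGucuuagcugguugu
miR-27b-3p: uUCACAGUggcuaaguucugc
miR-338-3p: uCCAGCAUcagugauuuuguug
miR-30a-5p: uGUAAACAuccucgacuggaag
miR-20b-5p: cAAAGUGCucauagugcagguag
The likeness is a description over 16 shared arrays. The genotype values at p4 were -2.26 for miR-34a, -1.45 for miR-27b, -2.85 for miR-338-3p, -1.15 for miR-30a and -1.96 for miR-20b. Values at E17 were -0.44 for miR-34a, -0.51 for miR-27b, -0.57 for miR-338-3p, -0.033 for miR-30a and -0.82 for miR-20b. With age in controls miR-34a differed by 1.37, miR-27b by 0.84, miR-338-3p by 0.87, miR-30a by 0.82 and miR-20b by -0.096. miR-20b was thus the one of the 5 that was not higher at p4 than at E17 in controls.

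**Figure D4:**
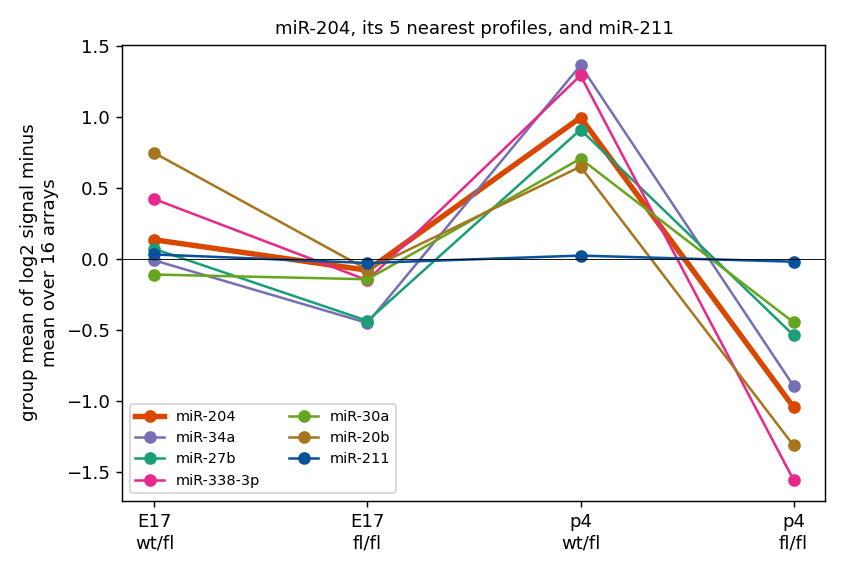
Group means of the centred normalized log2 signal (each miRNA minus its own mean over 16 arrays) for miR-204, its 5 nearest profiles and miR-211. miR-204 goes from 0.99 in p4 controls to -1.05 in p4 mutants, while miR-211 stays between -0.030 and 0.030 in the 4 groups.

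The nearest profiles to miR-211 were those of other flat probes. They were miR-7a at 0.0573, miR-191* at 0.0597, miR-345-5p at 0.0620, miR-669a at 0.0637 and miR-467a* at 0.0696. miR-204 came 268th of 280. A miRNA with no variation is near to every other such miRNA, so these names describe no shared pattern.

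A list of 13 miRNAs linked to glial differentiation, without miR-204, was set beside it. On these same arrays the study selected miR-338-3p, miR-138, miR-23b, miR-27b, miR-24 and miR-100 for falling in p4 mutants and rising with age in controls. It selected miR-9 for falling with age and in mutants at either age. The direction of the list at p4 and with age in controls was thus largely built in. Its counts are no independent evidence. All 13 were on the array and 12 were expressed. miR-219, which drives oligodendrocyte differentiation, was detected on 0 arrays. At p4, 8 of the 12 fell in mutants on at least 1 probe and none rose, with a median log2 difference of -0.64 against 0.064 for all 281 miRNAs. By the same rule 10.7% of all 281 fell and 10.3% rose. Those 8 were miR-23b, miR-27b, miR-138, miR-24, miR-100, miR-9, miR-338-5p and miR-338-3p. miR-29a, which is known to lower collagen messages, was at 0.40 and miR-23a at 0.12, both without a call. Under 6 other scalings 6 to 10 of the 12 fell at p4, and under 1 of them 1 rose.

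At E17, where 2.49% of all miRNAs fell on at least 1 probe and 3.56% rose, 1 of the 12 was called, miR-27b, which fell by 0.51 (SE 0.109, limma adjusted p = 0.0124), and the median was -0.17 against -0.0043 for all. That call was lost without normalization, with normexp background correction and when scaled to positive controls. Under the percentile scalings 3 and 2 of the 12 fell, and 2 with the deposited intensities. On the normalized scale miR-204 at -0.21 was close to the list median of -0.17. With age in controls 6 of 12 rose and 1, miR-9, fell, with a median of 0.40 against -0.020. By this rule 8.19% of all miRNAs rose and 12.1% fell. Under other scalings 5 to 11 of the list rose and up to 4 fell. In mutants miR-29a rose and miR-9 and miR-338-3p fell, with a median of 0.099 against 0.035, where 3.20% of all miRNAs rose and 7.47% fell. This count turned with the scaling in both directions. It was 10 falling and 0 rising when scaled to positive controls, and 6 rising and 2 falling without normalization. Under the percentile of detected probes 4 rose and 2 fell, and under that over all probes 7 rose and 2 fell. miR-338-3p was thus lower with age in mutants, at -1.41, as miR-204 was.

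**Figure D5:**
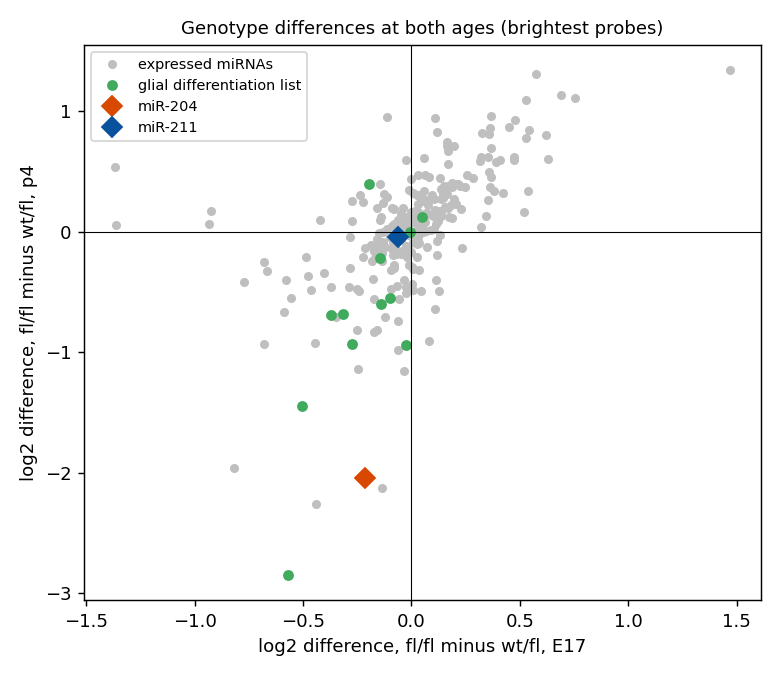
Log2 difference of mutants minus controls at E17 (x) and p4 (y) for the brightest probe of each of 281 expressed miRNAs. Grey points are all miRNAs, green points the 12 expressed members of the glial list, and diamonds miR-204 and miR-211. miR-204 sits at -0.21 and -2.04, and miR-211 near 0 on both axes. The 2 axes share no arrays.

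Signals of miRNAs known from other cells of the nerve also differed between the groups, and their part in the miR-204 values was not tested. At p4 the fibroblast and smooth muscle list (miR-199a, miR-214, miR-143 and related names) held 9.42% to 11.98% of the summed signal in mutants and 4.21% to 4.89% in controls. It was 8.83% to 9.81% against 4.53% to 7.58% at E17. Of its 5 expressed members 4 rose at both ages, all of them miR-199 or miR-214 names, and none fell. Among all miRNAs 3.56% rose on at least 1 probe at E17 and 10.3% at p4. The remaining member, miR-143, was at 0.054 at E17 and 0.076 at p4, and miR-145 was not expressed. Without normalization or scaled to positive controls none of the 5 was called at either age, and under the 75th percentile over all probes none was called at E17. The glial list held 4.58% to 5.65% in p4 mutants and 9.03% to 10.3% in p4 controls. The lower miR-204 of p4 mutants stood beside a lower glial and a higher fibroblast share. The glial list holds miRNAs that the study selected for falling in p4 mutants on these arrays. Its lower share in p4 mutants was thus partly built in and does not measure glial content. At E17 the glial share, at 4.37% to 4.94% against 5.07% to 6.73%, and the fibroblast share also separated the genotypes, where miR-204 overlapped. Shares are relative to a total that was 51.3% of controls in p4 mutants. In unnormalized summed signal the p4 fibroblast list overlapped, at 5352 to 10016 in mutants and 5502 to 7541 in controls. The glial list was lower in p4 mutants, at 2637 to 4178 against 12700 to 13911. At E17 both lists overlapped between genotypes in summed signal.

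The counts of the other lists stand beside 3.56% of all miRNAs higher in mutants at E17, and 10.3% higher and 10.7% lower at p4. Of the leukocyte list, 1 of 3 expressed members rose in mutants at each age, miR-142-3p at E17 and miR-223 at p4, and miR-142-5p and miR-150 were not expressed. Its share was 0.353% to 0.421% against 0.223% to 0.293% at E17 and 0.430% to 0.725% against 0.173% to 0.222% at p4. Of the endothelial list, miR-126-3p rose at p4 and neither of its 2 members passed at E17. Its share was 1.11% to 1.46% in mutants and 0.730% to 1.02% in controls at E17, and 1.548% to 1.81% against 0.908% to 1.545% at p4. In unnormalized summed signal the leukocyte and endothelial lists overlapped between genotypes at both ages. At p4 the endothelial one was at 927 to 1512 in mutants and 1138 to 2381 in controls. Of 3 erythroid miRNAs miR-486 rose at E17 and miR-451 at p4, and their shares overlapped between genotypes, at 5.38% to 12.19% against 1.74% to 5.44% at E17 and 0.542% to 1.95% against 0.167% to 1.13% at p4. Of 4 neuronal miRNAs miR-9, which is also on the glial list, fell at p4. The others went up without a call, miR-124 by 0.31, miR-132 by 0.28 and miR-128 by 0.097, and the list median was 0.19. Under the percentile scalings 3 and 2 of the 4 were called higher at p4, and 1 lower under each. No member of the 4 skeletal muscle miRNAs or the liver miRNA miR-122 was called between genotypes on the normalized scale, though miR-122 was at -1.36 at E17 and the muscle median at 0.70 at p4. Scaled to positive controls miR-122 was called lower at E17, and 1 muscle miRNA was called higher at p4 there and under the percentile of detected probes. These single calls of other lists did not hold under every scaling.

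With age in controls 12.1% of all 281 miRNAs fell on at least 1 probe. There 3 of the 5 fibroblast, 2 of the 3 erythroid, 1 of the 4 muscle and 1 of the 4 neuronal members fell. In mutants, where 7.47% of all miRNAs fell, 2 erythroid members and miR-9 fell. Counts of 1 in lists this short were not read as a result. The fibroblast count turned with the scaling, to 4 rising in controls without normalization, whereas miR-204 was higher at p4 in controls under every scaling tried.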

How the data were processed

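RNA from sciatic nerves was hybridised to 1-colour Agilent mouse miRNA arrays, 4 biological replicates a group as the methods state, and scanned with Agilent Feature Extraction 10.5.1.1 per the submitters' processing notes. The authors deposited scanner files, whose intensity columns (median, processed and background signal, and total gene signal) were used, and a table of 1902 probe intensity values, of which 1857 matched miRNA probes. The depth of an array is its signal over background, and 4 arrays a group limit the precision.

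Median intensities of 13000 non-control spots were put on the log2 scale, quantile normalized and averaged per probe without outlier spots, and fitted with limma 3.58.1 in R 4.3.3 on all 16 arrays and 4 groups, with no block and Benjamini-Hochberg adjustment over 681 probes. The scripts were tested on simulated data. Quantile normalization hides a change common to all miRNAs. The members and lists, and the rule for named miRNAs (the pair with all probes, the 5 nearest profiles of each, the glial list and all names sharing the seed), were chosen with earlier results of these data known. Marker lists stood for fibroblast with smooth muscle, endothelium, leukocytes, erythroid cells, neurons, hepatocytes and skeletal muscle. The p4 genotype comparison and both age comparisons carry no test. Mean spot intensity was not used here, so the normexp alternative (offset 50) ran on median signal. Other alternatives were further scalings, the deposited intensities, outlier spots kept, other filters, tests, array weights, a replicate block and arrays left out. Total gene signal, unnormalized and as a share, was added after seeing the data. Sequences came from RefSeq tables.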

Additional observations from a re-analysis of the deposited data

Results flagged for a closer look

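Of 32 sets of 4 arrays checked for a single distant array, 2 stood out, and chance alone marks about 1 in 20 sets. In E17 controls, replicate 1 had a normalized log2 miR-204 signal of 9.86 on A_54_P2396, where the nearest array was at 9.21. Without it the E17 difference moved from -0.21 to -0.033, and neither value was called. In p4 controls, replicate 3 had a total miR-204 gene signal of 2046, where the nearest array was at 1781, and all 4 arrays lay above every p4 mutant array.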

How the results depend on the processing

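miR-204 kept its sign in all 4 comparisons under each of 32 or 33 alternatives. At E17 it ran from -0.45 to -0.033 and was never called (smallest adjusted p 0.238, exact permutation p 0.4 on the log2 signal). The normalized p4 genotype difference of -2.04 was -2.48 with processed signal scaled to the 75th percentile of probes detected on all arrays, -2.96 with that over all probes, -3.15 without normalization, -2.85 scaled to positive controls, -1.75 as the mean of its probes, -3.44 as total gene signal and -2.48 as a share. The age difference of miR-204 in controls, 0.86 on the normalized scale, was 1.34, 1.83, 2.45 and 2.57 (both percentile scalings, no normalization, total gene signal). In mutants it was -0.34 without normalization, -1.49 scaled to positive controls, -0.65 as probe mean and -0.41 as total gene signal. The median of all probes moved by more than 0.1 with scaling, to -1.03 with age in controls and -1.13 with age in mutants under positive-control scaling, to 0.42 with age in controls without normalization and to 0.46 at p4 under the percentile of detected probes. Relative to these medians miR-204 was at 2.03, -0.36, 2.03 and -2.94. At E17 the median moved to 0.25 without normalization and 0.26 scaled to positive controls, which puts miR-204 at -0.61 relative to it, past 0.5 in size and not tested.

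The sign of miR-211 turned with the scaling in each comparison, and its probes were below the lowest probe well above background. At p4 it was 0.14 and -0.34 under the percentile scalings, -0.15 without normalization, 0.15 scaled to positive controls, -0.49 as total gene signal and 0.47 as a share. With age in controls it was -0.37, 0.12, 0.36, -1.09, 0.60 and -0.87 in that order. With age in mutants it was 0.16 over all probes, -1.18 scaled to positive controls, 0.25 as total gene signal and -0.43 as a share. At E17 it ran from -0.39 to 0.25 with no call. miR-211 drops out when detection on every array of a group is asked.

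Without 1 array at a time, miR-204 differences were -0.30 to -0.033 at E17, -2.15 to -1.89 at p4, 0.79 to 1.05 with age in controls and -1.08 to -0.83 with age in mutants. Those of miR-211 were -0.12 to -0.017, -0.055 to -0.019, -0.015 to 0.00092 and -0.035 to 0.065. Calls ran from 9 (without E17 control replicate 1) to 30 (without E17 control replicate 4) at E17, 95 to 111 at p4, 77 to 98 with age in controls and 46 to 58 with age in mutants.

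Probes called numbered 19 at E17, 99 at p4, 87 with age in controls and 48 with age in mutants. At E17 the count was 85 under the percentile of detected probes, 11 without normalization, 6 scaled to positive controls, 12 without a filter, 34 with array weights and 0 at a log2 difference of at least 1. At p4 it was 349 and 293 under the percentile scalings, 61 with normexp, 157 without normalization and 21 at the larger difference. With age in controls it was 303, 271, 55, 299 and 19 in that order, and 553 scaled to positive controls. With age in mutants it was 179 and 186 under the percentile scalings, 106 without normalization, 618 scaled to positive controls and 11 at the larger difference. The share of calls that were higher moved with the scaling. At E17 it was 52.6% on the normalized scale, 63.5% and 8% under the percentile scalings, 27.3% without normalization, 33.3% scaled to positive controls and 42.3% with the deposited intensities. At p4 it was 45.5% on the normalized scale, 71.3% and 44.4% under the percentile scalings, 0.637% without normalization and 6.67% scaled to positive controls. With age in controls it was 42.5%, and 36.0%, 67.9%, 96.7% and 3.62% under the same 4 settings. With age in mutants it was 25%, and 50.3%, 68.8%, 85.8% and 0% under them, and 37.5% with the deposited intensities. The cause was not tested. By the methods' t-test 33, 97, 85 and 49 probes passed the unadjusted threshold, and 13, 95, 76 and 38 after Benjamini-Hochberg.

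The methods describe littermate pairs, but the labels do not say that a replicate number marks one. Deviations of same-numbered arrays correlated from -0.52 to 0.090 at E17, with 0 of 4 pairs over 0.1, and from -0.28 to 0.46 at p4, with 3 of 4 over 0.1, so the numbers were not taken as pairs. With the replicate number as a block the calls were 23, 98, 84 and 46, and the E17 adjusted p was 0.431 for miR-204 and 0.385 for miR-211, with no call of either miRNA changed.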
